A study of Mus musculus with 11 samples.

Results

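p53 and its direct target genes were followed in 11 RNA-seq libraries of mouse neural progenitor cells (NPCs) from which Smg6 was or was not deleted. The list holds 38 genes, namely Trp53, which encodes p53, its feedback regulators, and genes that p53 is known to bind and switch on. The genes were given by name and not by a cut-off on their values, although the list was put together with earlier results of these data known, and all 38 matched 1 identifier each among the 53801 genes of the count files. NPCs came from the brains of E13.5 embryos of C57BL/6 mixed with 129SV mice, and each library is named by its group and embryo. Every embryo carried Smg6 flox/flox, in which both copies of Smg6 can be cut out by Cre recombinase. Ctr (embryos SMH_128, SMH_132 and SMH_133) also carried RosaCreER on 1 allele (RosaCreER tg/+), a Cre that is expressed from the Rosa26 locus in all cells and is held inactive until 4-hydroxytamoxifen (4-OHT) binds it, and received no 4-OHT. Ctr + 4-OHT (embryos SMH_125, SMH_126, SMH_129 and SMH_131) lacked the transgene (RosaCreER +/+) and received 1 µM 4-OHT, for 3 days by the labels. Smg6-iKO (embryos SMH_127, SMH_128, SMH_132 and SMH_133) carried RosaCreER and received the same 4-OHT, which deletes Smg6. RNA was taken 6 days after 4-OHT. The sources differ on the incubation, since another description of the cultures has them in 4-OHT for all 6 days, and do not settle whether the 6 days run from its start or its end. CreER and 4-OHT came together only in Smg6-iKO, so effects of losing Smg6 and of active Cre cannot be told apart. Each library is 1 culture of 1 embryo, and embryos SMH_128, SMH_132 and SMH_133 gave both a Ctr and an Smg6-iKO culture.

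p53 is a transcription factor that is made and destroyed continuously, and Mdm2, an E3 ubiquitin ligase that p53 itself switches on, marks it for destruction. Damage to DNA, loss of ribosome balance and other stresses block this turnover, so that p53 protein can rise with no change in Trp53 RNA, and p53 then binds DNA as a tetramer and raises genes that restrain growth, repair DNA, or kill the cell. In the embryonic brain p53 is best known for removing damaged progenitors, and its loss rescues many forms of microcephaly in mice. SMG6 is the endonuclease that cuts transcripts in nonsense-mediated mRNA decay (NMD).

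Promoter bases that match the consensus for p53 are shown here as a description of the listed genes. p53 binds pairs of a 10-base half-site, and the p53 half-site consensus was searched in the RefSeq promoters of GRCm38.p6, from 250 bases before to 50 bases after each start. The consensus reads alike on both strands. Promoter windows were at hand for 29 of the 38 genes, some with windows at several starts. A half-site in any window was held by 10 of these 29 (34.5%), against 9.55% of all 27025 genes with a window. No window of a member held 2 half-sites within 13 bases of each other, the spacing of a complete site, and 0.074% of all genes did. Only exact matches to the consensus were counted. At that share over all genes, 0 of 29 says little of the members. The 10 stretches follow, 5′ to 3′ along the gene's strand, with the half-site in capitals.
Trp53, chr11:69580274-69580303, plus strand: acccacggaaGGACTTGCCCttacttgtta
Mdm2, chr10:117710925-117710954, minus strand: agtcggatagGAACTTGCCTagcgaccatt
Ppm1d, chr11:85311112-85311141, plus strand: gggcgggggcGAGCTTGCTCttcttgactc
Ccng1, chr11:40755452-40755481, minus strand: agacctgcccGGGCAAGCCTtggcactgaa
Sesn1, chr10:41887256-41887285, plus strand: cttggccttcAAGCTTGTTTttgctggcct
Ckap2, chr8:22186003-22186032, minus strand: ctgtgtctgaAGACATGTCCtgacttgtca
Aen, chr7:78895927-78895956, plus strand: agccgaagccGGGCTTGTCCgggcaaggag
Ei24, chr9:36797325-36797354, minus strand: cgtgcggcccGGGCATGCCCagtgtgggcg
Polk, chr13:96519399-96519428, minus strand: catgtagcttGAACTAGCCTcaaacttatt
Abhd4, chr14:54259274-54259303, plus strand: cgacccggcaGGGCTTGTTTactatggctg
The half-site began 75 bases before the start of Trp53 itself, 186 bases before that of Mdm2, and 185 bases before that of Ccng1. Ckap2, Sesn1 and Polk held theirs 203, 173 and 231 bases before the start in that order, and that of Ppm1d is shown above. That of Aen lay at −121 (or at 11 from another start of Aen), and those of Ei24 and Abhd4 lay near the start, at −10 and 2. For Sesn1, Polk and Abhd4 the place is counted from a start further inside the gene. Their windows at the start further upstream held no half-site. A match describes the letters and is not evidence of binding, and a window without one says nothing of sites elsewhere in a gene.

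Between 26418249 and 33756875 reads were counted per library. A gene is said here and below to rise, fall or pass where its adjusted p was under 0.05 in edgeR's quasi-likelihood test after its filter on low counts, unless another fit is named. Smg6 itself is reported first as a check of the labels. Its counts over the whole gene were 69.4, 79.4 and 74.3 CPM (counts scaled to the library's total) in Ctr, 66.5, 72.0, 72.3 and 66.6 CPM in Ctr + 4-OHT and 62.5, 62.3, 71.9 and 67.5 CPM in Smg6-iKO. These ranges overlapped, and no comparison without the block described below called Smg6. In each of the 3 embryos with both cultures Smg6-iKO was the lower one, and with the embryo as a block Smg6 fell by 0.15 ± 0.049 log2 (SE, edgeR adjusted p = 0.043). A count over the whole gene does not show whether the floxed part is lost. Gas5, a known NMD substrate, stood between 255 and 342 CPM in the control libraries and between 681 and 786 CPM in Smg6-iKO. The summed level of 8 progenitor markers was 5165 to 6741 CPM in the 11 libraries, that of 5 neuron markers was 1544 to 2501 CPM, and microglial (at most 3.79 CPM) and erythroid markers (at most 0.128 CPM) were nearly absent. The 5 pericyte or meningeal fibroblast markers summed to 83.2 to 522 CPM, with the highest sums in Smg6-iKO SMH_127 (522 CPM) and Ctr + 4-OHT SMH_131 (322 CPM). The 4 astrocyte markers summed to 428 to 516 CPM and the 4 endothelial markers to 4.38 to 7.35 CPM. In Smg6-iKO against Ctr, 4 of the 8 progenitor markers (Sox2, Pax6, Fabp7 and Hes5) fell, where 4.98% of all genes fell and 4.27% rose. Of the other lists 1 gene passed, the astrocyte marker Gfap, which rose by 1.33 ± 0.32 log2 (SE, edgeR adjusted p = 0.0288). The highest Gfap library was Ctr + 4-OHT SMH_131 (78.2 CPM), and Smg6-iKO SMH_133 (25.7 CPM) lay below Ctr SMH_128 (26.2 CPM). With the embryo as a block 6 progenitor markers fell, while 3 of 5 neuron markers (Tubb3, Dcx and Stmn2), 2 of 4 astrocyte markers (Gfap and S100b) and 1 of 5 pericyte or fibroblast markers (Col1a1) rose. Over all genes 11.2% fell and 10.3% rose in that fit. No marker of these lists passed the test against Ctr + 4-OHT or for Ctr + 4-OHT against Ctr. Without the 2 libraries highest in Col1a1 (Ctr + 4-OHT SMH_131 and Smg6-iKO SMH_127), 0 of the 38 p53 genes passed against Ctr + 4-OHT (42 of 17559 genes did) and their median log2 fold change was 0.11, against 0.13 with them. The part of the other markers in the results was not tested. In bulk RNA, fewer cells of a type and less RNA per cell cannot be told apart.

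All 38 genes passed the filter on low counts in every comparison. The median level per length was 18.2 CPM per kb of exon over the 38 genes (mean of 11 libraries) and 4.33 CPM per kb over all genes kept, and 33 of the 38 lay above the latter (Tigar, Ddb2, Tnfrsf10b, Perp and Rrm2b lay below). The highest levels per length were 145.9 CPM per kb for Ccng1, a cyclin that brings a phosphatase to Mdm2, 107 CPM per kb for Ephx1, a detoxifying epoxide hydrolase, and 61.3 CPM per kb for Ckap2, a protein of the mitotic spindle. The lowest were 2.03 CPM per kb for Rrm2b, a ribonucleotide reductase subunit that supplies nucleotides for DNA repair, 2.48 CPM per kb for Perp, a membrane protein of p53-dependent death, and 2.99 CPM per kb for Tnfrsf10b, the death receptor for TRAIL. Trp53 itself stood at 10.7 CPM per kb, below the median of the list.

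**Figure D1:**
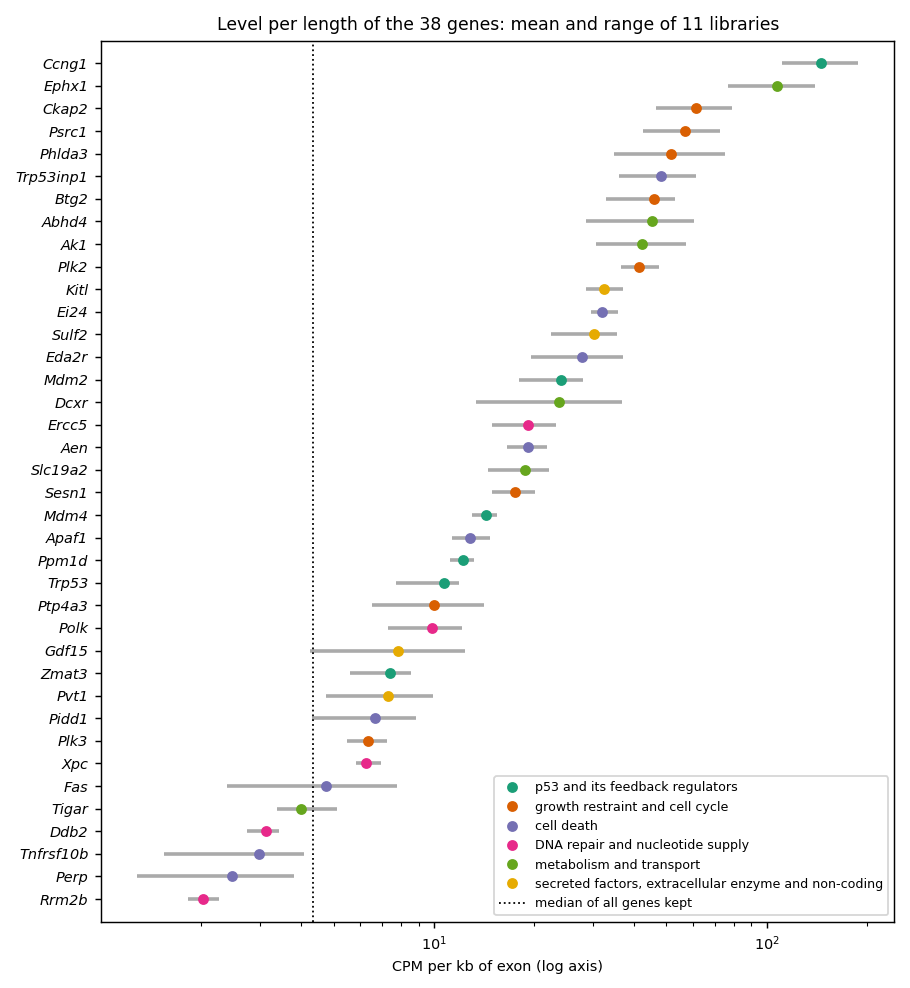
Level per length of the 38 genes in CPM per kb of exon on a log axis, with points for the mean of 11 libraries, bars from the lowest to the highest library, colours for the role of each gene and a dotted line for the median of all genes kept (4.33 CPM per kb). The means run from 2.03 (Rrm2b) to 145.9 (Ccng1), and 33 of 38 lie to the right of the line.

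The spread between embryos was widest within Ctr + 4-OHT. The median ratio of the highest to the lowest library was 1.49 over the 38 genes in Ctr + 4-OHT and 1.30 over all 18123 genes kept, while it was 1.17 and 1.17 in Ctr and 1.23 and 1.22 in Smg6-iKO. Within Ctr + 4-OHT, embryo SMH_129 was highest for 25 of 38 genes (30.7% of all genes) and embryo SMH_131 was lowest for 21 (26.3% of all genes). Taken against the mean of all 11 libraries, the median log2 deviation of the 38 genes was -0.33 in Ctr + 4-OHT SMH_125 and -0.35 in Ctr + 4-OHT SMH_131, against 0.082 in SMH_126 and 0.11 in SMH_129. Within Smg6-iKO, embryo SMH_128 was highest for 28 of 38 genes (31.6% of all genes) and embryo SMH_127, the one with no Ctr culture, was lowest for 25 (25.9% of all genes). Marker sums moved with the libraries too. The neuron markers summed to 2501 CPM in Ctr + 4-OHT SMH_125 and 2326 CPM in SMH_131 but to 1857 CPM in SMH_126 and 1544 CPM in SMH_129, the fibroblast markers to 214, 322, 112 and 99.7 CPM and the progenitor markers to 5512, 5677, 5827 and 6741 CPM in the same order. Whether they bear on the spread of the targets was not tested.

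**Figure D2:**
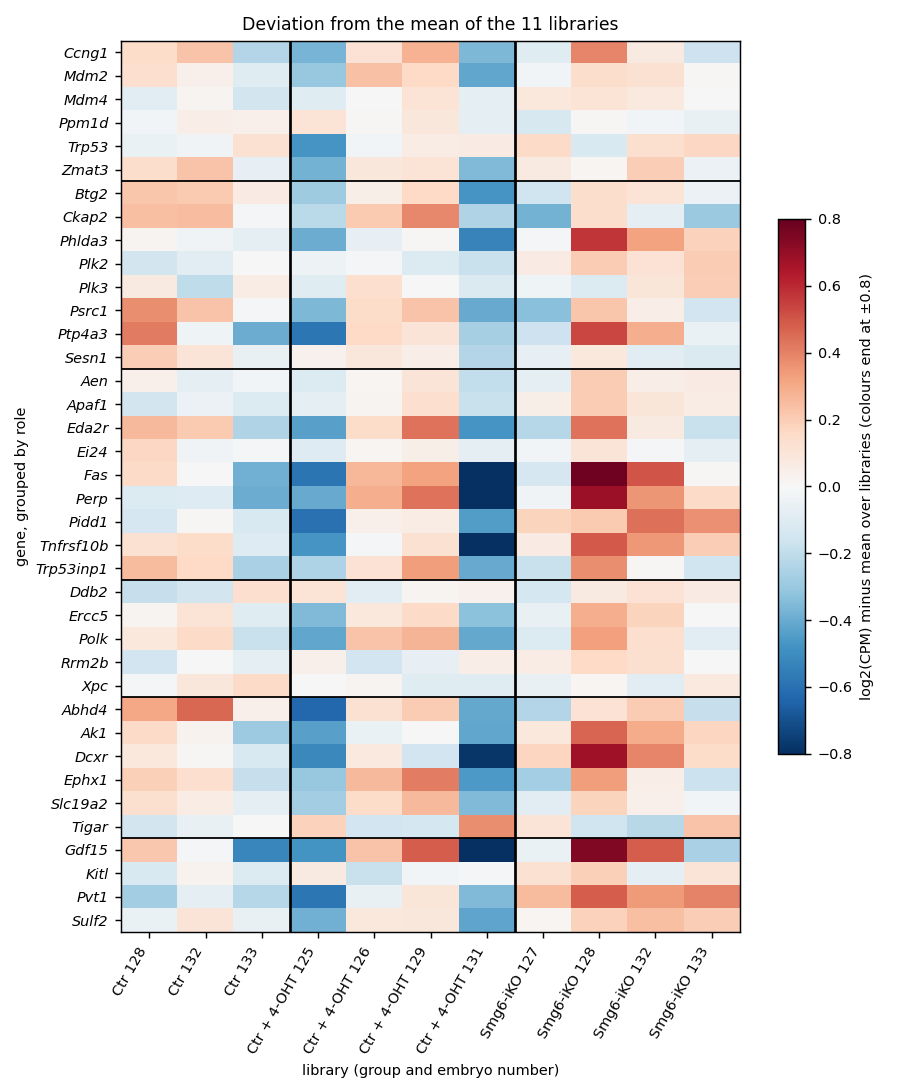
Deviation of each gene (rows, grouped by role) in each library (columns, by group and embryo) from its mean over the 11 libraries, in log2 CPM, with red for above, blue for below and colours that end at 0.8 either way. Ctr + 4-OHT SMH_125 and SMH_131 are blue for most genes (median -0.33 and -0.35) and Smg6-iKO SMH_128 is red for most (median 0.20).

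Smg6-iKO was first set against Ctr + 4-OHT, the comparison in which both groups received the drug. None of the 38 genes passed the test (edgeR, adjusted p under 0.05), and 1.17% of the 17558 genes tested did. Most nevertheless lay on the higher side. The log2 fold change was above 0 for 33 of 38, against 52.8% of all genes, with a median of 0.13 against 0.012 over all genes. At an unadjusted p under 0.05 there were 8 genes, all of them higher (Phlda3, Plk2, Tnfrsf10b, Pidd1, Dcxr, Ak1, Sulf2 and Pvt1), and 9.02% of all genes reached this on the higher side. For 5 genes (Plk2, Pidd1, Dcxr, Ak1 and Pvt1) every Smg6-iKO library lay above every Ctr + 4-OHT library, as did 5.03% of all genes, and for none did every library lie below. The Wald test of DESeq2 called 6 genes higher (these 5 and Phlda3), against 2.67% of the genes it tested. The median depended on the libraries named above, at 0.071 without Ctr + 4-OHT SMH_125, 0.067 without SMH_131 and 0.22 without SMH_129, and without SMH_129 Pvt1 passed the test.

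Against Ctr, the untreated cultures of the same genotype, 4 of the 38 genes rose by edgeR (Pvt1, Pidd1, Plk2 and Apaf1) and none fell, with 4.27% of all genes called higher and 4.98% called lower. DESeq2 called 7 higher (these 4, Phlda3, Perp and Dcxr) and Ckap2 lower, against 7.04% and 9.89% of the genes it tested. Without the filter on low counts edgeR called 10 higher (the same 7, Fas, Ak1 and Gdf15) and 3 lower (Ckap2, Psrc1 and Abhd4), against 4.07% and 3.49% of all genes. The median log2 fold change was 0.078 over the 38 genes and 0.0055 over all genes. For 7 genes (Plk2, Perp, Pidd1, Apaf1, Rrm2b, Dcxr and Pvt1) the Smg6-iKO and Ctr libraries did not overlap, all with Smg6-iKO above, as held for 11.4% of all genes. The count of 4 fell to 1 without Ctr SMH_128 or without Smg6-iKO SMH_133, and to 2 without Ctr SMH_132 or without Smg6-iKO SMH_132, and only Pvt1 passed in all 7 of these fits. With the embryo as a block, so that each Smg6-iKO culture is set against the Ctr culture of the same embryo, 14 genes rose and 3 fell, against 10.3% of all genes called higher and 11.2% called lower. Smg6-iKO SMH_127 has no sister culture and adds nothing to that contrast. The count of 17 was 16 without embryo SMH_128 (28.1% of all genes were called in that fit), 18 without embryo SMH_132 (14.6%) and 11 without embryo SMH_133 (9.62%). Of the 17, 11 kept their call in all 3 of these fits, Ckap2, Tnfrsf10b, Abhd4 and Sulf2 in 2, and Psrc1 and Ercc5 in 1.

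**Figure D3:**
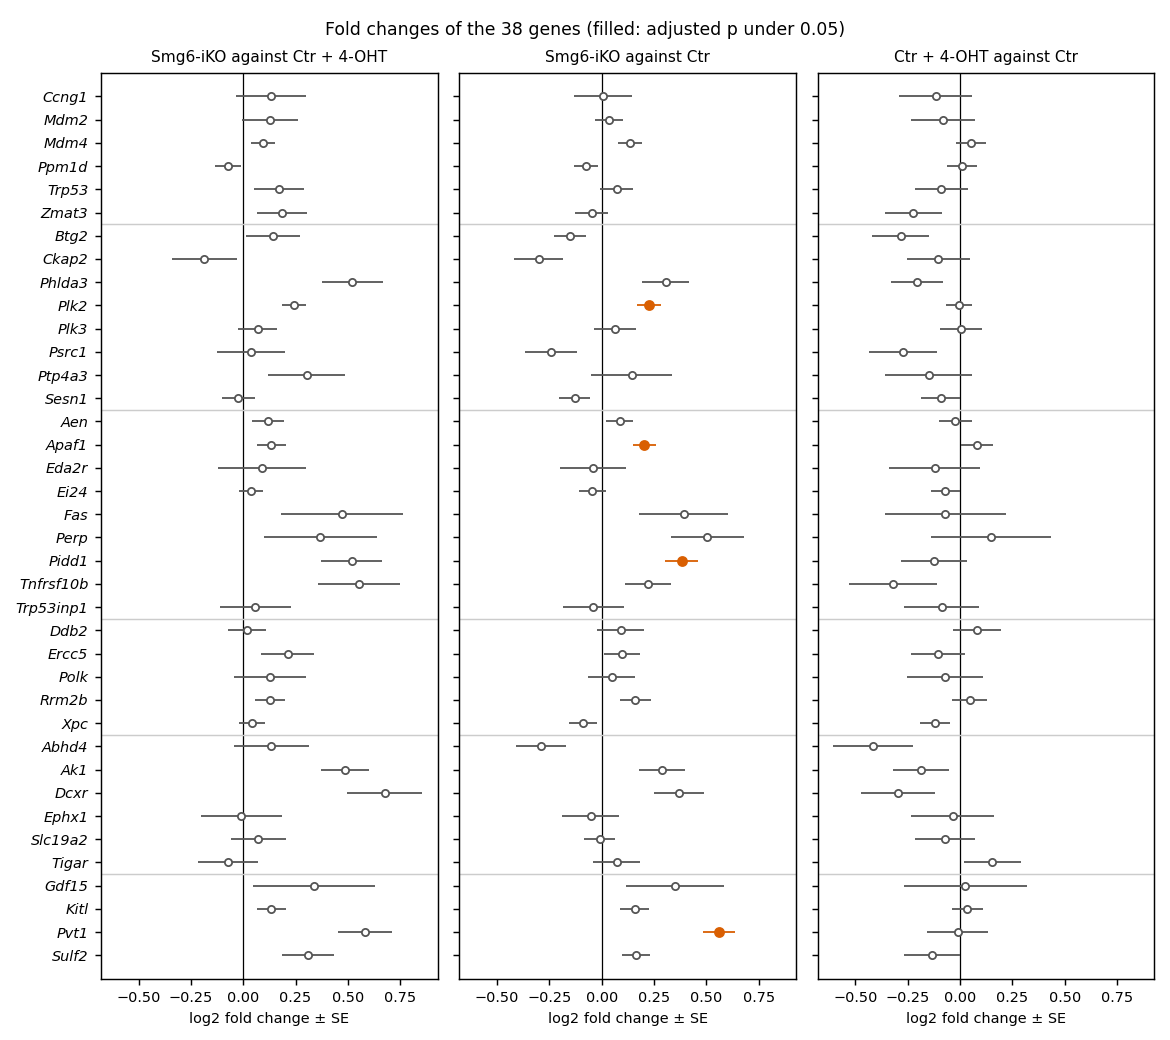
Log2 fold change with its standard error (x axis) of the 38 genes (y axis, grouped by role) in the 3 comparisons, from the edgeR fit of the groups compared, with filled points for an adjusted p under 0.05. Filled points are Plk2, Apaf1, Pidd1 and Pvt1 in the middle panel, and most points of the left panel lie to the right of 0 (33 of 38). The panels share groups, so they are not independent.

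Ctr + 4-OHT was then set against Ctr, which differ in both 4-OHT and CreER. None of the 38 genes passed the test by edgeR (0.221% of all genes did), none reached an unadjusted p under 0.05 (8.28% of all genes) and none was called by DESeq2. The log2 fold change was above 0 for 10 of 38, against 51.2% of all genes, with a median of -0.085 against 0.0045 over all genes. That median was -0.011 without Ctr + 4-OHT SMH_125, 0.015 without SMH_131, -0.19 without SMH_129, -0.14 without SMH_126, -0.032 without Ctr SMH_128 and -0.14 without Ctr SMH_133. Each of the 3 comparisons shares 1 group with each of the others, so their values are not independent, and a low level in Ctr + 4-OHT enters 2 of them with opposite signs.

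p53 and its feedback regulators passed the test in no comparison, with or without the block (0 of 6 genes). Over all genes 1.17% passed against Ctr + 4-OHT, 4.27% rose and 4.98% fell against Ctr, and 10.3% rose and 11.2% fell with the block, so that 0 of 6 does not set the group apart. Libraries are listed here and below in the order of the embryo numbers given above. Trp53 measured 41.5, 42.3 and 47.0 CPM in Ctr, 31.1, 42.5, 45.0 and 45.2 CPM in Ctr + 4-OHT, and 47.9, 39.7, 47.1 and 48.3 CPM in Smg6-iKO. Its lowest library was Ctr + 4-OHT SMH_125, and the 3 groups overlapped. Its log2 fold change was 0.17 ± 0.12 log2 (SE, adjusted p = 0.514) against Ctr + 4-OHT (0.052 without Ctr + 4-OHT SMH_125) and 0.072 ± 0.079 log2 (SE, adjusted p = 0.608) against Ctr. Mdm2 measured 134, 125.1 and 114 CPM in Ctr, 98.9, 143, 136 and 91.5 CPM in Ctr + 4-OHT, and 120.0, 134, 132.6 and 123 CPM in Smg6-iKO. Smg6-iKO lay inside the range of Ctr + 4-OHT, and the log2 fold change of Mdm2 was 0.036 ± 0.067 log2 (SE, adjusted p = 0.779) against Ctr. Ccng1, the most abundant of all per length, measured 558, 591 and 429.9 CPM in Ctr, 389.5, 547, 613 and 393 CPM in Ctr + 4-OHT, and 473, 662, 529 and 449.7 CPM in Smg6-iKO, and Smg6-iKO differed from Ctr by 0.0061 ± 0.14 log2 (SE, adjusted p = 0.985). Mdm4, the partner of Mdm2 that silences p53 (0.14 against Ctr), Ppm1d, the phosphatase that reverses p53 activation (-0.075), and Zmat3, an RNA-binding regulator of splicing (-0.048), differed by no more than 0.19 log2 in either comparison with Smg6-iKO.

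Of the genes that restrain growth or act in the cell cycle (8 genes), Plk2 passed the test of edgeR against Ctr, and with the block 3 rose and 2 fell (10.3% and 11.2% of all genes). Plk2, a kinase of centriole duplication and synapses, measured 167, 174 and 185 CPM in Ctr, 179.7, 183, 171 and 164 CPM in Ctr + 4-OHT, and 193, 213, 200.4 and 213 CPM in Smg6-iKO. Every Smg6-iKO library lay above all 7 control libraries. Its log2 fold change was 0.24 ± 0.055 log2 (SE, adjusted p = 0.0705) against Ctr + 4-OHT, 0.23 ± 0.059 log2 (SE, adjusted p = 0.04) against Ctr and 0.25 ± 0.050 log2 (SE, adjusted p = 0.00155) with the block. Phlda3, which blocks Akt at the membrane, measured 79.9, 77.0 and 74.9 CPM in Ctr, 59.7, 75.0, 79.0 and 54.2 CPM in Ctr + 4-OHT, and 77.8, 117, 98.0 and 89.4 CPM in Smg6-iKO. Smg6-iKO SMH_128 stood highest, and Smg6-iKO SMH_127 overlapped with Ctr and with Ctr + 4-OHT SMH_129. Phlda3 differed by 0.52 ± 0.14 log2 (SE, adjusted p = 0.11) from Ctr + 4-OHT and rose by 0.39 ± 0.056 log2 (SE, adjusted p = 0.000102) against Ctr with the block. Ptp4a3, a phosphatase, measured 122, 89.3 and 69.4 CPM in Ctr, 61.1, 102, 98.0 and 76.0 CPM in Ctr + 4-OHT, and 81.3, 132.3, 112 and 88.0 CPM in Smg6-iKO, a spread in which embryo SMH_128 was highest in both Ctr and Smg6-iKO. With the block Ptp4a3 rose by 0.26 ± 0.052 log2 (SE, adjusted p = 0.00194), and without it the difference was 0.14 ± 0.19 log2 (SE, adjusted p = 0.684).

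Both genes of this group that fell belong to the mitotic machinery. Ckap2 measured 229, 231 and 193 CPM in Ctr, 167, 224, 254 and 164 CPM in Ctr + 4-OHT, and 149, 214, 185 and 158 CPM in Smg6-iKO, and Psrc1, a spindle microtubule protein, measured 244, 221 and 187 CPM in Ctr, 147, 209, 221 and 143 CPM in Ctr + 4-OHT, and 149.8, 220.1, 196 and 169 CPM in Smg6-iKO. In both, each Smg6-iKO culture was below the Ctr culture of its embryo although the groups overlapped. With the block the log2 fold change was -0.23 ± 0.053 log2 (SE, adjusted p = 0.0043) for Ckap2 and -0.16 ± 0.047 log2 (SE, adjusted p = 0.0255) for Psrc1, and neither passed in edgeR against Ctr without it or against Ctr + 4-OHT, although DESeq2 called Ckap2, and edgeR with no filter called both, lower against Ctr. The call of Ckap2 was lost in 1 and that of Psrc1 in 2 of the 3 fits without 1 embryo, and without embryo SMH_133 none of the 38 genes was called lower. Btg2, an antiproliferative gene of neurogenic progenitors, measured 146, 145 and 130.9 CPM in Ctr, 103, 129.4, 139 and 90.0 CPM in Ctr + 4-OHT, and 112, 138, 135 and 121 CPM in Smg6-iKO, with its lowest values in Ctr + 4-OHT SMH_125 and SMH_131. Btg2 gave -0.28 ± 0.14 log2 (SE, adjusted p = 0.643) for Ctr + 4-OHT against Ctr and -0.098 ± 0.046 log2 (SE, adjusted p = 0.145) for Smg6-iKO against Ctr with the block. Sesn1, an antioxidant and TORC1 inhibitor, and Plk3, a stress kinase, passed in no comparison, with or without the block.

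**Figure D4:**
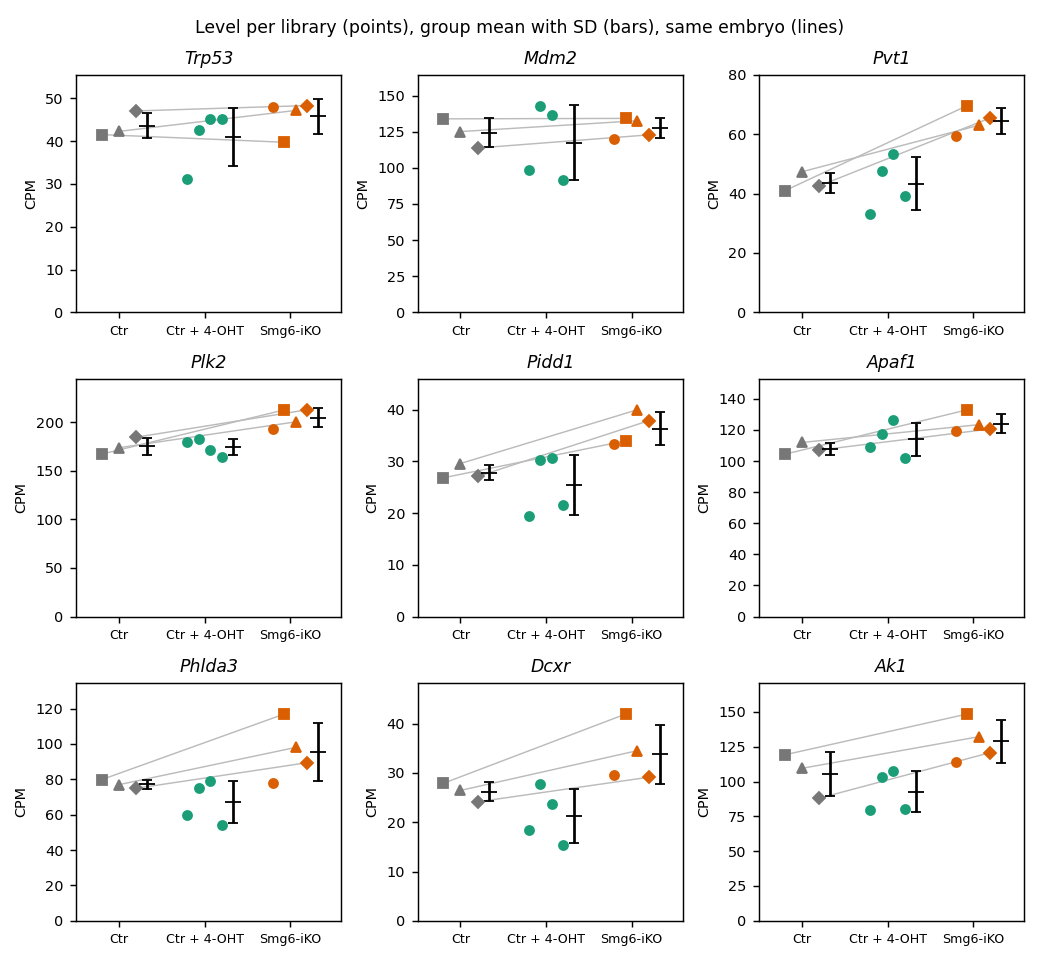
CPM (y axis, from 0) of 9 genes in every library by group, with bars for the group mean and SD and grey lines joining Ctr and Smg6-iKO cultures of the same embryo (square SMH_128, triangle SMH_132, diamond SMH_133). Trp53 and Mdm2 overlap in all groups, and in Pvt1 and Plk2 every Smg6-iKO library lies above all 7 controls.

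Cell death genes (9 genes) were above 0 in all 9 log2 fold changes against Ctr + 4-OHT (52.8% of all genes), and against Ctr 2 of them rose by edgeR without the block (4.27% of all genes) and 5 with it (10.3%). Pidd1, the scaffold of the PIDDosome that activates caspase-2, measured 26.8, 29.6 and 27.1 CPM in Ctr, 19.5, 30.3, 30.7 and 21.6 CPM in Ctr + 4-OHT, and 33.3, 34.0, 40.0 and 37.9 CPM in Smg6-iKO. Its Smg6-iKO libraries lay above all control libraries. Pidd1 differed by 0.52 ± 0.15 log2 (SE, adjusted p = 0.118) from Ctr + 4-OHT and rose by 0.38 ± 0.077 log2 (SE, adjusted p = 0.016) against Ctr, and by 0.42 ± 0.062 log2 (SE, adjusted p = 0.000123) with the block. Apaf1, the core of the apoptosome, measured 104, 112 and 107 CPM in Ctr, 109, 118, 126.6 and 102 CPM in Ctr + 4-OHT, and 119, 133.004, 123 and 121 CPM in Smg6-iKO, which separated Smg6-iKO from Ctr but not from Ctr + 4-OHT SMH_129. Apaf1 rose by 0.20 ± 0.056 log2 (SE, adjusted p = 0.0464) against Ctr and by 0.22 ± 0.051 log2 (SE, adjusted p = 0.00482) with the block. The call without the block was kept in only 1 of 7 fits without 1 library. It was also lost with the correction for gene length and with all 11 libraries in one fit.

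The death receptor Fas measured 9.05, 8.12 and 6.24 CPM in Ctr, 5.43, 9.80, 10.2 and 4.31 CPM in Ctr + 4-OHT, and 7.41, 14.0, 11.6 and 8.20 CPM in Smg6-iKO, and the groups overlapped widely. Within embryos the picture was narrower, with Smg6-iKO above Ctr by 0.62, 0.51 and 0.39 log2 in embryos SMH_128, SMH_132 and SMH_133, and Fas rose by 0.52 ± 0.094 log2 (SE, adjusted p = 0.000761) with the block. Perp measured 4.30, 4.31 and 3.52 CPM in Ctr, 3.50, 5.67, 6.27 and 2.51 CPM in Ctr + 4-OHT, and 4.55, 7.44, 5.93 and 5.16 CPM in Smg6-iKO, and all Smg6-iKO libraries lay above all Ctr libraries. Perp rose by 0.60 ± 0.12 log2 (SE, adjusted p = 0.00168) with the block, against 0.50 ± 0.17 log2 (SE, adjusted p = 0.0918) without it. Tnfrsf10b measured 17.2, 17.5 and 14.7 CPM in Ctr, 11.4, 15.7, 17.2 and 8.41 CPM in Ctr + 4-OHT, and 16.6, 22.2, 20.1 and 18.1 CPM in Smg6-iKO, lowest in Ctr + 4-OHT SMH_131. It differed by 0.55 ± 0.20 log2 (SE, adjusted p = 0.196) from Ctr + 4-OHT, and rose by 0.29 ± 0.074 log2 (SE, adjusted p = 0.00987) against Ctr with the block. Eda2r, a death receptor of the TNF family (-0.042 against Ctr), Trp53inp1, a cofactor of p53 in death and autophagy (-0.040), Aen, a nuclease (0.085), and Ei24, an autophagy protein of the endoplasmic reticulum (-0.045), also passed in none.

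DNA repair and nucleotide supply (5 genes) held 1 gene that passed, and only with the block, where 10.3% of all genes rose, so that 1 of 5 says little of the group. Ercc5, the nuclease that makes the 3′ cut in nucleotide excision repair, measured 114, 120.5 and 105 CPM in Ctr, 87.6, 119, 124 and 89.2 CPM in Ctr + 4-OHT, and 108, 137, 126.6 and 112 CPM in Smg6-iKO. Its 3 groups overlapped, and it rose by 0.14 ± 0.050 log2 (SE, adjusted p = 0.0484), a call that was lost in 2 of 3 fits without 1 embryo and with the correction for gene length. Without 1 embryo its log2 fold change was 0.080 to 0.18. Rrm2b measured 16.6, 18.5 and 17.6 CPM in Ctr, 19.1, 16.7, 17.7 and 19.2 CPM in Ctr + 4-OHT, and 19.3, 20.7, 20.2 and 18.5 CPM in Smg6-iKO, with every Smg6-iKO library above every Ctr library, narrowly at the closest, and gave 0.17 ± 0.075 log2 (SE, adjusted p = 0.118) with the block. Ddb2 and Xpc, which recognise ultraviolet damage, and Polk, a translesion polymerase, passed in no comparison, with or without the block.

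Metabolism and transport (6 genes) held no gene that passed in edgeR without the block, although DESeq2 called Dcxr and Ak1 higher against Ctr + 4-OHT and Dcxr higher against Ctr. With the block 2 rose and 1 fell (10.3% and 11.2% of all genes). Dcxr, a carbonyl and xylulose reductase, measured 27.9, 26.5 and 24.1 CPM in Ctr, 18.4, 27.8, 23.7 and 15.3 CPM in Ctr + 4-OHT, and 29.6, 42.0, 34.5 and 29.1 CPM in Smg6-iKO. The lowest Smg6-iKO library stood above the highest control library. Dcxr gave a log2 fold change of 0.68 ± 0.18 log2 (SE, adjusted p = 0.103) against Ctr + 4-OHT, 0.37 ± 0.12 log2 (SE, adjusted p = 0.0777) against Ctr and 0.42 ± 0.070 log2 (SE, adjusted p = 0.000364) with the block. Ak1, the adenylate kinase of the cytosol, measured 119, 109.5 and 88.0 CPM in Ctr, 79.5, 103, 107 and 80.4 CPM in Ctr + 4-OHT, and 114, 149, 132.2 and 121 CPM in Smg6-iKO, so that Smg6-iKO was above every Ctr + 4-OHT library but overlapped with Ctr. Ak1 gave 0.49 ± 0.12 log2 (SE, adjusted p = 0.0794) against Ctr + 4-OHT and rose by 0.35 ± 0.049 log2 (SE, adjusted p = 8.28e-05) with the block. Abhd4, a lipid hydrolase, measured 179, 199 and 149 CPM in Ctr, 93.7, 157, 167 and 109 CPM in Ctr + 4-OHT, and 123, 157, 167 and 127.4 CPM in Smg6-iKO. It had the smallest unadjusted p of the 38 genes for Ctr + 4-OHT against Ctr at -0.42 ± 0.19 log2 (SE, adjusted p = 0.619), and fell in Smg6-iKO by 0.22 ± 0.047 log2 (SE, adjusted p = 0.00265) with the block. Ephx1 measured 235, 225 and 181 CPM in Ctr, 166, 245, 273 and 149 CPM in Ctr + 4-OHT, and 169.8, 259, 213 and 182 CPM in Smg6-iKO and passed in no comparison, and neither did Slc19a2, a thiamine transporter, or Tigar, a brake on glycolysis.

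The secreted factors, the extracellular enzyme and the non-coding RNA (4 genes) were above 0 in both comparisons with Smg6-iKO (52.8% of all genes were against Ctr + 4-OHT). Against Ctr 1 of the 4 rose by edgeR without the block (4.27% of all genes) and 3 with it (10.3%). Pvt1, a long non-coding RNA next to Myc with a p53-responsive isoform, measured 41.0, 47.4 and 42.6 CPM in Ctr, 33.3, 47.7, 53.3 and 39.0 CPM in Ctr + 4-OHT, and 59.3, 69.7, 63.0 and 65.5 CPM in Smg6-iKO. All 4 Smg6-iKO libraries lay above all 7 controls. Its log2 fold change was 0.58 ± 0.13 log2 (SE, adjusted p = 0.0673) against Ctr + 4-OHT, 0.56 ± 0.074 log2 (SE, adjusted p = 0.00279) against Ctr and 0.60 ± 0.063 log2 (SE, adjusted p = 4.31e-06) with the block, and it passed against Ctr in every alternative fit. Gdf15, a stress-induced cytokine of the TGF-β family, measured 15.9, 13.6 and 9.57 CPM in Ctr, 9.90, 16.1, 19.3 and 7.84 CPM in Ctr + 4-OHT, and 13.2, 23.0, 19.2 and 11.5 CPM in Smg6-iKO. Its groups overlapped, and it rose by 0.44 ± 0.082 log2 (SE, adjusted p = 0.000921) with the block, against 0.35 ± 0.23 log2 (SE, adjusted p = 0.367) without it. The latter was 0.16 without Smg6-iKO SMH_128, 0.17 without Ctr SMH_133 and 0.52 without Ctr SMH_128. Sulf2, a sulfatase of heparan sulfate, measured 170.2, 189 and 169 CPM in Ctr, 135, 187, 188 and 131.7 CPM in Ctr + 4-OHT, and 179, 200.3, 208 and 202 CPM in Smg6-iKO. It was lower in Ctr + 4-OHT SMH_125 and SMH_131 than in any other library, and rose by 0.21 ± 0.049 log2 (SE, adjusted p = 0.00525) with the block. Kitl, the ligand of the Kit receptor, differed by 0.16 ± 0.071 log2 (SE, adjusted p = 0.181) from Ctr.

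Within the 3 embryos that gave both cultures, 18 of 38 genes were higher in Smg6-iKO in all 3 embryos and 5 were lower in all 3 (Sesn1, Btg2, Ckap2, Psrc1 and Abhd4), against 25.8% and 25.9% of all genes. By more than 0.2 log2 in each embryo, 9 genes were higher (Phlda3, Plk2, Perp, Fas, Pidd1, Dcxr, Ak1, Gdf15 and Pvt1) and none lower, against 7.55% of all genes on the higher side. The mean difference within embryos was largest for Pvt1 (0.60 ± 0.18 log2, SD, n = 3) and Perp (0.59 ± 0.17). Embryo SMH_128 showed the larger difference for both, 0.76 for Pvt1 and 0.78 for Perp, and embryo SMH_132 the smaller, 0.41 and 0.45. Trp53 differed by -0.063, 0.16 and 0.038 log2 and Mdm2 by 0.0033, 0.084 and 0.11 log2 in embryos SMH_128, SMH_132 and SMH_133. Of the 14 genes that rose with the block, 10 had a promoter window and 0 of these held a p53 half-site in it, which is near the 9.55% of all genes with a window, and 4 (Perp, Ptp4a3, Tnfrsf10b and Pvt1) had none to search. Of the 3 that fell, Ckap2 and Abhd4 held one, and of the 16 not called 8 did. Abhd4, Polk and Sesn1 are counted here although their window at the start further upstream held none.

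**Figure D5:**
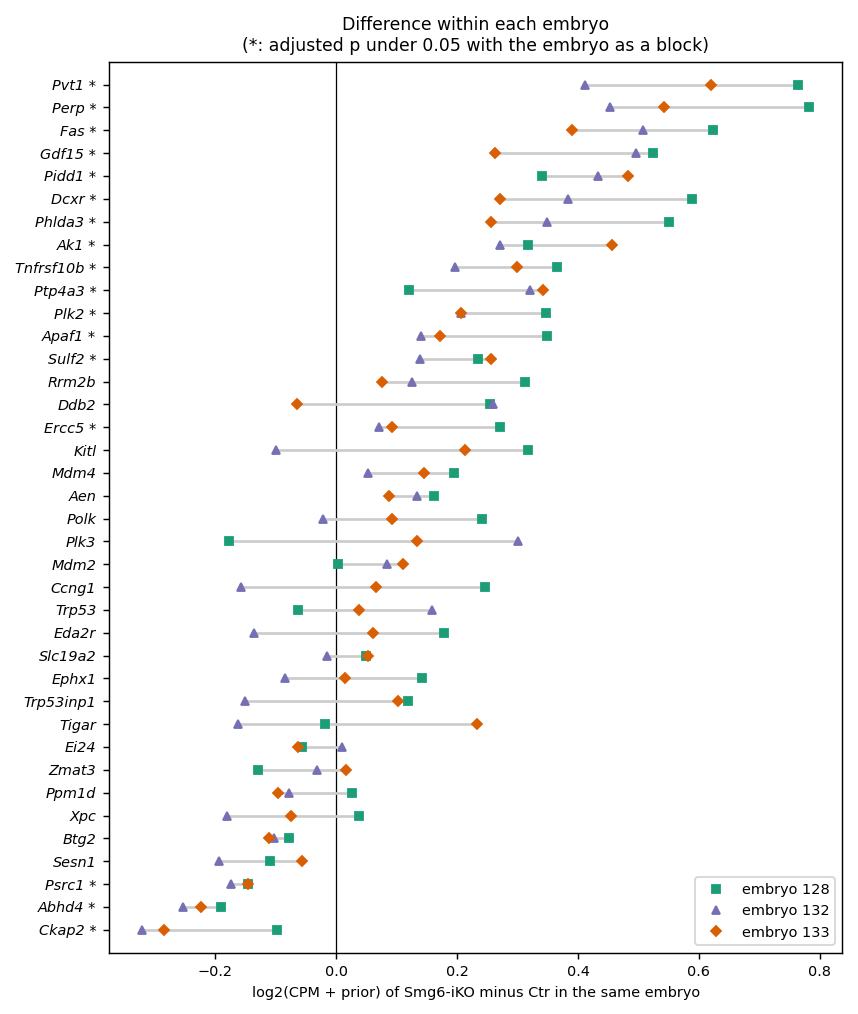
Difference in log2 CPM between Smg6-iKO and Ctr of the same embryo (x axis) for the 38 genes (y axis, ordered by the mean), with 1 symbol per embryo, a grey bar from the lowest to the highest and an asterisk for an adjusted p under 0.05 with the embryo as a block. All 3 symbols lie to the right of 0 for 18 genes and to the left for 5.

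Other genes of the pathway were counted from 3 lists. Of 27 other p53-transactivated genes that were tested, none passed against Ctr + 4-OHT (1.17% of all genes), 3 rose against Ctr (4.27% of all genes), and none passed for Ctr + 4-OHT against Ctr (0.221%). With the block 11 rose and 2 fell, against 10.3% and 11.2% of all genes. The 3 were Pmaip1 (Noxa, a BH3-only death gene, 0.46 ± 0.13 log2, SE), Trp53cor1 (lincRNA-p21, 0.50 ± 0.11) and Inka2 (a Pak4 inhibitor, 0.29 ± 0.070). Cdkn1a (p21), the classical arrest gene, measured 222, 192 and 165 CPM in Ctr, 107, 196, 197 and 118 CPM in Ctr + 4-OHT and 172, 235, 209 and 175 CPM in Smg6-iKO. Ctr + 4-OHT SMH_125 and SMH_131 were its lowest libraries, and with the block Cdkn1a gave 0.098 ± 0.047 log2 (SE, adjusted p = 0.157). Without the block Cdkn1a gave 0.37 ± 0.20 log2 (SE, adjusted p = 0.391) against Ctr + 4-OHT and 0.036 ± 0.12 log2 (SE, adjusted p = 0.885) against Ctr. For Ctr + 4-OHT against Ctr it gave -0.32 ± 0.22 log2 (SE, adjusted p = 0.719). Of 21 upstream kinases and cofactors tested, none passed in any comparison without the block. Chek1 and Ep300 fell with it, beside 11.2% of all genes, so that the counts do not set this list apart. Of 15 cell cycle genes that are known to be lowered through p53, p21 and the DREAM complex, 3 fell against Ctr + 4-OHT (Ccnb1 by 0.44, Cdk1 by 0.42 and Plk4 by 0.38 log2), 14 fell against Ctr, and none passed for Ctr + 4-OHT against Ctr. Over all genes 1.17% passed against Ctr + 4-OHT in either direction and 4.98% fell against Ctr. The largest falls against Ctr were those of Prc1, Kif20a and Ccnb2, which fell by 0.54, 0.53 and 0.52 log2, followed by Top2a and Cdc25c at 0.48. The median log2 fold change of these 15 genes was -0.38 against Ctr + 4-OHT and -0.44 against Ctr. Sox2, Pax6, Fabp7 and Hes5 fell in the same comparison with Ctr, and their part in this was not tested.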

How the data were processed

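Ribosome-depleted, stranded total RNA of 11 NPC cultures was sequenced by the authors in single reads, mapped to GRCm38 with STAR 2.5.4b and counted per Ensembl gene with featureCounts 1.5.0, in stranded mode and without reads that mapped to several places or genes. The deposited values are these raw counts, 1 per gene and library, without normalization (26418249 to 33756875 counts per library). Their precision is limited by counting error and by the spread between embryos, which the SD values cover together. The SE values come from edgeR's quasi-likelihood test, which moderates each gene's dispersion with that of other genes. They, and the adjusted p values beside them, are therefore not a measure of each gene's own spread between embryos. With the block the contrast rests on 3 embryos. Groups were taken from the sample labels.

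Symbols and positions came from GENCODE M21 (53620 of 53801 identifiers paired), promoters from RefSeq. CPM use TMM factors set over all 11 libraries, and log2 values add a prior count of 2. Every comparison used a fit of only the groups it compares, in edgeR 4.0.16 (R 4.3.3): filterByExpr, TMM, quasi-likelihood test and Benjamini-Hochberg adjustment over all genes tested, with a threshold of 0.05. The study's own test was the Wald test of DESeq2, run here in version 1.42.0 as an alternative. The other alternatives were DESeq2's size factors, upper-quartile normalization, no filter, a floor of 10 counts per library, a single fit of all 11 libraries, a loess correction for gene length (span 0.3), a block for the embryo with and without that correction, and leaving out 1 library at a time. Fits without the 2 libraries highest in Col1a1, block fits without 1 embryo, and the alternatives of the counts of libraries that do not overlap were added after seeing the data. Figures were drawn with matplotlib 3.10.9.

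The embryo numbers in the labels pair Ctr with Smg6-iKO, since both cultures come from 1 embryo. Over genes, their deviations from the means of their groups had a correlation of 0.328 to 0.425 in the 3 pairs of the same embryo and of -0.265 to 0.0948 in the 9 pairs of different embryos. No 2 libraries of a group held duplicate counts (chi-square per gene 11.0 to 43.0).

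The members, lists and tests were chosen with earlier results of these data known. Values in every library are given for Trp53, Mdm2, members called in a comparison or with the block, the 3 highest and 3 lowest per length, and the 5 with the smallest p in each comparison. From the other lists, called genes (the 5 largest changes where more were called) and Cdkn1a are named. The oligodendrocyte lineage markers are not reported here.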

Additional observations from a re-analysis of the deposited data

Results flagged for a closer look

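The Trp53 level of Smg6-iKO SMH_128 stood apart from the other Smg6-iKO libraries, at 39.7 CPM against 47.1, 47.9 and 48.3 CPM, a gap of 0.867 of the whole range. It was the only such library among 76 groups of 4 examined (38 genes in Ctr + 4-OHT and in Smg6-iKO), where chance alone sets apart about 1 group in 20. The Ctr culture of the same embryo measured 41.5 CPM, the lowest of the 3 Ctr libraries.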

How the results depend on the processing

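Against Ctr + 4-OHT the count of genes that passed was 0, and it was 5 without the filter on low counts (418 of 36104 genes passed there, against 206 of 17558), 2 with all 11 libraries in one fit (484 of 18123), 6 with DESeq2 (873 of 14401), and 0 to 1 with 1 library left out (66 to 174 genes). Against Ctr the count was 4, and it was 13 without the filter (10 higher and 3 lower, with 2714 of 35861 genes passing, against 1663 of 17974), 1 with all libraries in one fit (796 of 18123), 8 with DESeq2 (7 higher and 1 lower, 2421 of 14304), and 1 to 5 with 1 library left out (570 to 2524 genes). With the embryo as a replicate block it was 17 (3854 of 17974 genes), with the block and the length correction 16 (3714 genes), and with the block and 1 embryo left out 16, 18 or 11 (5164, 2644 or 1742 genes). Counts of genes whose libraries did not overlap were 5 against Ctr + 4-OHT (5 to 9 with 1 library left out) and 7 against Ctr (8 to 13), where fewer libraries make such a separation easier. The other settings kept these counts within 1.5 times. The count for Ctr + 4-OHT against Ctr was 0 in all fits run. Leaving out 1 library turned the sign of the log2 fold change of Mdm2 (-0.028 to 0.096) and Ptp4a3 (-0.038 to 0.38) in Smg6-iKO against Ctr, negative without Ctr SMH_133, and of Trp53 (-0.14 to 0.029, positive without Ctr + 4-OHT SMH_125) and Mdm2 (-0.19 to 0.028, positive without Ctr + 4-OHT SMH_131) in Ctr + 4-OHT against Ctr. Without the block none of these 4 passed in edgeR or DESeq2, while Ptp4a3 rose with it, and the cause was not tested.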
